A study of Mus musculus with 37 samples.

Results

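The cells described here were those with at least 1 count in 3 or more of 7 genes (Thbs4, Mmp13, Cited1, Sprr2k, Ctla2a, Ptprb and Serpinb1a), and they are called members below. They numbered 427 of 8563 cells, or 4.99% (95% exact binomial interval 4.54 to 5.47%, counting error only). Single cells had been measured by Drop-seq, in which a droplet joins a cell with a bead whose barcoded primers capture its polyadenylated RNA. All cells were mouse embryonic fibroblasts (MEFs) of the ICR background, taken 7 days after infection with retroviral vectors for a pool of 48 factors, among them transcription factors of heart and muscle development, and the labels call them reprogrammed. The labels give 37 libraries, all technical replicates of 1 biological replicate with the same pool, and no uninfected control among them, so every comparison was made between cells of the same biological replicate. The 2 sets compared were the members and, for each of them, 1 cell of the same library with a similar total count that did not meet the rule, called matched cells below. A p-value here therefore covers the spread between libraries of 1 biological replicate. That spread includes which cells fell into each library, and no spread between biological replicates.

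The rule genes stand for several kinds of cell. Ctla2a encodes a cysteine protease inhibitor related to cathepsin propeptides, Serpinb1a an intracellular inhibitor of neutrophil-type serine proteases, and Ptprb the endothelial receptor tyrosine phosphatase VE-PTP. Thbs4 encodes a matrix thrombospondin of tendon and muscle, Mmp13 an interstitial collagenase of cartilage and bone, Cited1 a transcriptional co-activator without a DNA-binding domain, and Sprr2k a small proline-rich protein of the cornified envelope of epithelia. The members were chosen on their counts of these genes, so the values of the 7 genes are a description of the choice and carry no test.

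The library totals ran between 637680 and 7921171 counts, with a median of 3296317, and a cell held between 1610 and 208623 counts. Technical replicates 4 and 6 shared 59 cell barcodes while the next pair shared 4, so they were joined, which left 36 libraries. Library names sort them into 3 series, called JD, PZ47-PZ48 and PZ58. The level of the ribosomal protein gene Rps27a was above 100 CPM (counts of a gene scaled to a library sum of 1e6) in 10 libraries and below it in 26, and both splits were used as batches.

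Of the 7 rule genes, 3 carried most of the choice, and they were not Thbs4, Mmp13 and Cited1, by which such cells have been named. Ctla2a was detected in 94.6% of members, Serpinb1a in 78.9% and Ptprb in 60.4%. Mmp13 was detected in 23.2%, Thbs4 in 18.0% and Cited1 in 17.6%, and Sprr2k in 25.3%. None of Thbs4, Mmp13 and Cited1 was detected in 209 of the 427 members, at least 1 of them was in 218, and all 3 were in 1 cell. The cells are therefore called by the rule here, with Ctla2a, Serpinb1a and Ptprb as its leading genes, and not as cells that express Thbs4, Mmp13 and Cited1. The members held 45 different combinations of the 7 genes. Ctla2a with Ptprb and Serpinb1a alone was the most frequent of these, in 139 members (32.6%, 28.1 to 37.2%), followed by Mmp13 with Ctla2a and Serpinb1a in 36 members.

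**Figure D1:**
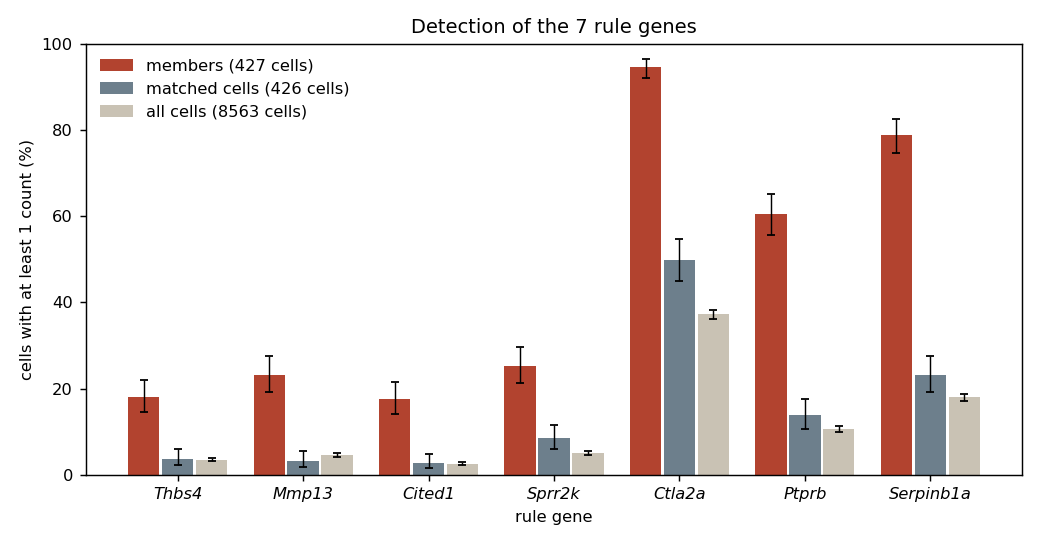
Percentage of cells with at least 1 count of each rule gene, for the 427 members, the 426 matched cells and all 8563 cells; error bars are 95% exact binomial intervals. Ctla2a, Serpinb1a and Ptprb were detected in 60.4 to 94.6% of members, while Thbs4, Mmp13 and Cited1 were detected in 17.6 to 23.2% of them.

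Just outside the threshold the same genes led. Among the 1240 cells with exactly 2 of the 7 genes, Ctla2a was detected in 80.3%, Serpinb1a in 48.7%, Ptprb in 31.0% and Thbs4 in 10.2%. Among the 360 cells with exactly 3, Ctla2a was detected in 93.9%, Serpinb1a in 76.4%, Ptprb in 56.9% and Thbs4 in 16.7%. A further 58 cells held 4 of the genes, 8 held 5, 1 held 6 and 0 held all 7, while 3745 cells held none. For the less frequent genes the call rested on few molecules: a single count made up the evidence in 57.1% of the members with Thbs4, 62.6% of those with Mmp13, 68.0% of those with Cited1 and 59.3% of those with Sprr2k. Single counts were also common for the leading genes, in 51.9% of the members with Serpinb1a, 46.5% of those with Ptprb and 27.7% of those with Ctla2a. A few cells were far higher, up to 243 counts of Mmp13 and 76 counts of Thbs4 in 1 member, and the 10 highest members held 79.9% of the members' Mmp13 counts and 68.5% of their Thbs4 counts. Per library, Ctla2a had a lowest, median and highest level of 89.6, 315 and 1214 CPM in members, against 0, 102 and 697 CPM in matched cells. For Thbs4 these levels were 0, 9.80 and 139.9 CPM in members, against 0, 0 and 20.2 CPM in matched cells. The libraries overlapped for both genes.

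Free RNA in droplets can give counts of a gene in cells that do not express it. In 32 cells with at least 6 of 12 macrophage markers, with a median total of 6889 counts against 8582 in the other cells, Ctla2a was detected in 13 (40.6%, 23.7 to 59.4%), Ptprb in 6, Serpinb1a in 3, Thbs4 in 1, Mmp13 in 1, and Cited1 and Sprr2k in 0 (exact interval 0 to 10.9%). Of the 32 cells, 4 were members. The Ctla2a share of these cells was close to its 37.2% over all cells, and that of Ptprb (18.8%) was not below its 10.6% over all cells, so single counts of either gene are not read here as expression by the cell.

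Deep cells met the rule far more often than shallow ones. Members had a median of 26367 counts (3897 to 161206) and other cells a median of 8227. When the cells of each library were divided by their totals into 4 depth classes of equal size, the rule was met by 0.929% of class 1, the shallowest, 1.73% of class 2, 3.86% of class 3 and 13.5% of class 4, which held 67.2% of all members. After every cell with at least 5000 counts had been thinned to 5000 counts, 68 of 6742 cells met the rule (1.01%, 0.784 to 1.28%), against 6.22% of the same cells with all their counts. This left out 1821 cells, 8 of them members. In the thinned cells the shares by depth class were 0.788, 1.15, 0.963 and 1.04%, so no class stood apart once depth was equal.

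**Figure D2:**
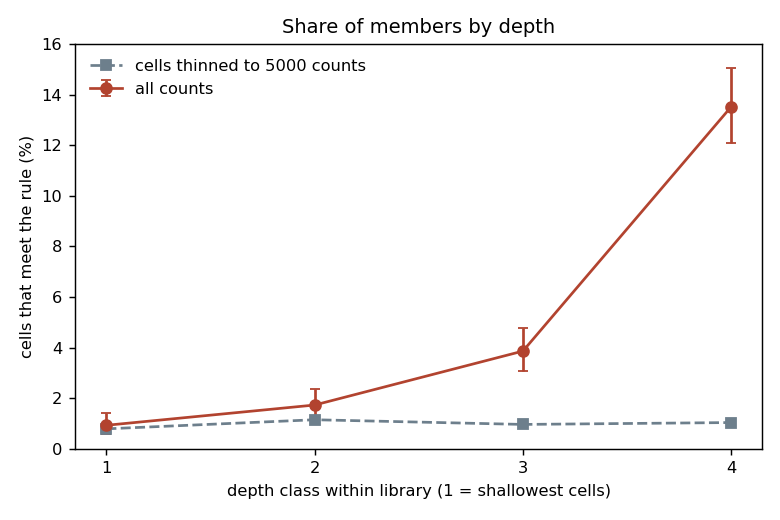
Percentage of cells that met the rule in each of 4 depth classes of total counts within library, with all counts (circles, with 95% exact binomial intervals) and after thinning to 5000 counts (squares, cells with fewer counts left out). With all counts the share was 0.929% in the shallowest and 13.5% in the deepest class, and after thinning it lay between 0.788 and 1.15%.

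Across libraries the share of members lay between 0.402 and 15.8%, with a median of 5.26%. The highest share was that of technical replicate 8 (28 of 177 cells, median total 13346 counts) and the lowest that of technical replicate 1 (1 of 249 cells, median total 3563 counts). By series the share was 5.71% in JD (188 of 3294 cells), 4.65% in PZ47-PZ48 (175 of 3767) and 4.26% in PZ58 (64 of 1502), and after thinning it was 1.17, 0.830 and 1.10%. Joint detection of rule genes was described at equal depth. In thinned cells the phi coefficient between 2 rule genes, computed over 6742 cells that share libraries, was highest for Ctla2a and Ptprb at 0.0838, followed by Ctla2a and Serpinb1a at 0.0424. Ptprb was detected in 9.55% of thinned cells with Ctla2a and 4.98% of those without, and Sprr2k in 6.19% of those with Mmp13 and 2.64% of those without. For Thbs4 and Mmp13 it was -0.0041, with 4 cells holding both, and for Cited1 and Sprr2k it was -0.0203, with 0 cells holding both.

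For the comparisons below, 426 members from 35 libraries were paired with 426 matched cells. Their median totals were 26410 counts in members and 26478 counts in matched cells, and 86.4% of pairs had totals within 10% of each other. In bulk sums of such cells, more expressing cells and more RNA per cell cannot be told apart. The share of cells with a count is therefore given beside the level for some of the genes. The counts of each set were summed per library and 14635 genes with at least 20 counts were tested with edgeR's quasi-likelihood test, with the library as a block. At an adjusted p under 0.05, 33 genes were higher in members (0.225% of those tested) and 11 were lower (0.0752%), and 1131 genes had an unadjusted p under 0.05. The median log2 fold change over all tested genes was 0.01, and 7613 of the 14635 (52.0%) had a positive fold change. Among the genes past the threshold, those that rose included Serpinb6b, Tnnt2, Ecscr, Krt8 and Col4a1, and those that fell Fgf10, Col2a1 and Itgb1. Of these genes, 13 of the 43 that could be tested were also called without cells that held 4 or more markers of another cell type, and 19 of the 44 were also called without the deepest 5% of cells of each library; both settings hold fewer cells by construction. All kept their sign in both settings. Of the 33 higher genes, 8 had at least 50% of their counts in members in 10 members.

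**Figure D3:**
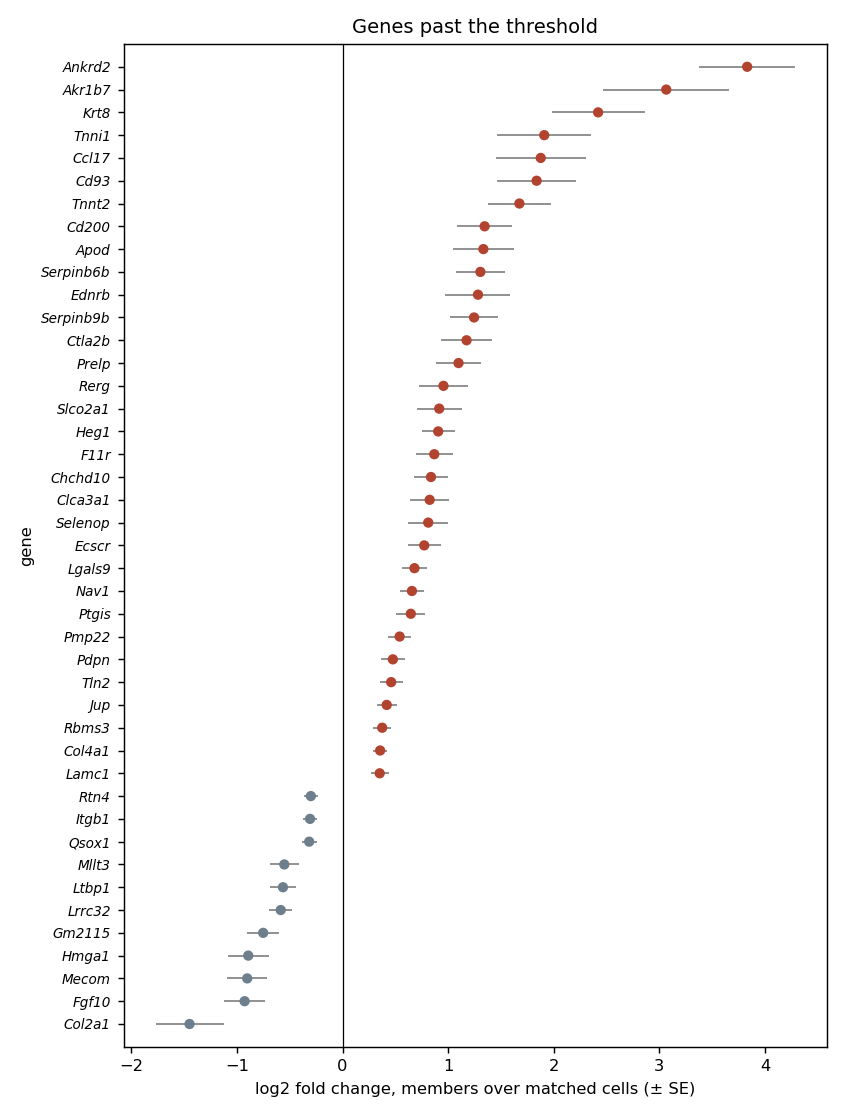
Log2 fold change of members over matched cells with its standard error for 43 of the 44 genes past the threshold of edgeR's quasi-likelihood test. Ankrd2, Akr1b7 and Krt8 lay highest, at 3.83, 3.06 and 2.42, and Col2a1 lowest, at -1.45; the value of Akr1b7 rests on 0 counts in matched cells.

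A pair of serpins outside the rule, Serpinb6b and Serpinb9b, was higher in members. Serpinb6b, an intracellular serpin of the same clade as Serpinb1a, had a lowest, median and highest level of 0, 78.0 and 482 CPM over the libraries in members, against 0, 27.6 and 179 CPM in matched cells. Its level was higher in members in 26 of 35 libraries and lower in 8 (log2 fold change 1.31 ± 0.23, SE; edgeR adjusted p = 0.00146). Serpinb9b, related to the granzyme B inhibitor, had 14.3, 186 and 884 CPM in members, against 0, 71.0 and 246 CPM in matched cells (log2 fold change 1.25 ± 0.23, edgeR adjusted p = 0.00146). It was detected in 62.7% of members and 44.4% of matched cells. Of the 8 clade B serpins tested besides Serpinb1a, 2 rose, 0 fell and 7 had a positive fold change, with a median log2 fold change of 1.27 against 0.01 over all genes. A positive fold change was found for 52.0% of all tested genes. Serpinb1c had 1.69 ± 0.51 (edgeR adjusted p = 0.198), and Serpinb6a, the most abundant of those tested, had 0.12 ± 0.08. Serpinb1a, Serpinb6b and Serpinb9b lie on mouse chromosome 13 (mm10; Serpinb1a at 32842092 to 32851185, Serpinb6b at 32965209 to 32979067, Serpinb9b at 33027416 to 33041884). Serpinb1a shared 0 stretches of 50 bases with the transcripts of either of the others, but 44 with Serpinb1b and 46 with Serpinb1c. Reads of this rule gene can therefore reach the counts of Serpinb1b and Serpinb1c, which are among the 7 with a positive fold change. Without the deepest 5% of cells Serpinb6b had 1.01 ± 0.30 (edgeR adjusted p = 0.191), while Serpinb9b kept its call. An exon of Serpinb9b overlaps the annotated gene Gm36099, which makes its count less certain because no strand setting is given.

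Ctla2b, the nearest relative of Ctla2a, was also higher, with 0, 17.7 and 56.5 CPM in members and 0, 5.73 and 35.3 CPM in matched cells (log2 fold change 1.17 ± 0.24, edgeR adjusted p = 0.00884). It was detected in 29.1% of members, against 14.1% of matched cells. This value is not independent of the rule. The annotated transcripts of both genes share 268 stretches of 50 bases, 14.8% of those of Ctla2b and 11.4% of those of Ctla2a, and both genes overlap exons of Gm49391, so reads of Ctla2a can reach the count of Ctla2b. Without the deepest 5% of cells Ctla2b had 0.67 ± 0.32 (edgeR adjusted p = 0.788). The closeness of the pair also shows in the sequences around their starts. They are given from RefSeq on GRCm38.p6 (250 bases before to 50 after the start), with capitals at bases that differ from the partner or lie outside the aligned stretch, and 256 of the 300 bases of each are identical in the alignment. Ctla2a lies at chr13:60936576-60936875 and Ctla2b at chr13:60897398-60897697, both on the minus strand.
Ctla2a: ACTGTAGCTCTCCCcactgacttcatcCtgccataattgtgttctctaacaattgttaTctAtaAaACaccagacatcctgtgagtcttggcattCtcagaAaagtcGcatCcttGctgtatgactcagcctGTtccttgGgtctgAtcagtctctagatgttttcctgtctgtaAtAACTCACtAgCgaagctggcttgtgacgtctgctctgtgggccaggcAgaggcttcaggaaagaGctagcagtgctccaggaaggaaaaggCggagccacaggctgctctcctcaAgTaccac
Ctla2b: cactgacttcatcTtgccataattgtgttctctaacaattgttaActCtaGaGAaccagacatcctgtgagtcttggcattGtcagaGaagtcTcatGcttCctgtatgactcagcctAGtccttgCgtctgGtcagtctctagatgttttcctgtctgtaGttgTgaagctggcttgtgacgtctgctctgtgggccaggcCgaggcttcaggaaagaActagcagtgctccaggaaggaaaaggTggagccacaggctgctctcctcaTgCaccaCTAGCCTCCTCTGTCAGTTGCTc

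Tnnt2, Tnni1 and Ankrd2, genes of striated muscle, were higher in members, the last 2 through few cells. Tnnt2, the cardiac troponin T that is also made in immature muscle, had a lowest, median and highest level of 20.4, 392 and 2714 CPM in members, against 0, 108 and 2416 CPM in matched cells. It was higher in members in 30 of 35 libraries (log2 fold change 1.67 ± 0.30, edgeR adjusted p = 0.00145), and was detected in 70.9% of members and 54.5% of matched cells. Tnni1, the slow skeletal troponin I, had a log2 change of 1.91 ± 0.44 (edgeR adjusted p = 0.0328), but 86.3% of its counts in members lay in 10 cells, and its median level was 17.0 CPM in members and 4.52 CPM in matched cells. Ankrd2, a muscle ankyrin repeat protein of stretched fibres, had the highest log2 fold change, 3.83 ± 0.46 (edgeR adjusted p = 8.9e-06). It was detected in 20 members and 6 matched cells, 98.2% of its counts in members lay in 10 cells, 41.1% lay in 1 library, and by series the log2 ratio came to 3.00 (JD), 6.80 (PZ47-PZ48) and -0.11 (PZ58). Among 20 cardiomyocyte genes, all tested, 20 had a positive fold change and 1, Tnnt2, passed the test, with a median log2 fold change of 0.98. Of all tested genes, 52.0% had a positive fold change. Tnnc1 had 1.38 ± 0.35 (edgeR adjusted p = 0.0683) and Mybpc3 1.93 ± 0.55 (edgeR adjusted p = 0.147). Over the libraries the summed level of this list ran between 58.5 and 6539 CPM in members (median 850) and between 19.5 and 7688 CPM in matched cells (median 184). Of 18 skeletal muscle genes tested, 17 had a positive fold change and 1, Tnni1, passed, with a median of 0.95; Myf5 and Myf6 had 0 counts in both sets.

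Cells with markers of other cell types were more frequent among members. At least 4 of 20 skeletal muscle markers were detected in 20.4% of members and 14.8% of matched cells, and at least 4 of 14 mesothelial markers in 23.7% of members and 11.7% of matched cells. For 12 macrophage markers the shares were 1.64% of members and 0.470% of matched cells, and for 11 glial markers 1.41% of members and 0.704% of matched cells. Any of these cutoffs was met by 151 of 426 members and 103 of 426 matched cells, called cells of other types in this text. The mesothelial list holds Dcn, also a listed fibroblast gene, and the skeletal muscle list holds Des, also a listed smooth muscle gene. Meeting a cutoff therefore does not show that a cell is of that type. Without all such cells, the median of the cardiomyocyte list was 0.80 and Tnnt2 kept a log2 change of 1.60 ± 0.30 (edgeR adjusted p = 0.00177), while the median of the skeletal muscle list was -0.07 and Tnni1 had 0.45 ± 0.49 (edgeR adjusted p = 0.984). The cells left out had been chosen on skeletal muscle markers, so the fall of that list follows from the choice. Without the deepest 5% of cells Tnnt2 had 1.58 ± 0.37 (edgeR adjusted p = 0.0304) and Tnni1 1.02 ± 0.43 (edgeR adjusted p = 0.677). Within series, the cardiomyocyte genes had a positive fold change in 17 of 17 tested for JD, 16 of 16 for PZ47-PZ48 and 7 of 8 for PZ58. The matching shares over all genes within each series are not given here. For the skeletal muscle genes the medians were 0.43 (JD), 1.69 (PZ47-PZ48) and -0.50 (PZ58).

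Some genes best known from endothelium were higher in members, while defining genes of that cell type ranged between 0 counts and clear detection. Ecscr, a surface protein of endothelial cells, had a lowest, median and highest level of 0, 86.7 and 206 CPM in members, against 9.64, 46.5 and 225 CPM in matched cells (log2 fold change 0.77 ± 0.16, edgeR adjusted p = 0.00675). Its exons overlap 1700066B19Rik. Cd93, a surface lectin-like receptor of endothelium and myeloid cells, had a log2 change of 1.84 ± 0.38 (edgeR adjusted p = 0.0082), with a count in 13.6% of members and 6.81% of matched cells. Ednrb, an endothelin receptor, had 1.28 ± 0.31 (edgeR adjusted p = 0.0435). The 10 highest members held 60.5% of the Cd93 counts and 63.3% of the Ednrb counts in members. The 10 highest matched cells held 59.6% of the Cd93 counts and 52.5% of the Ednrb counts in matched cells. Heg1, a receptor of heart and vessel development that was named after its values were seen, had 100.6 ± 65.0 CPM in members and 50.6 ± 29.0 CPM in matched cells (SD, n = 35), and was higher in members in 30 of 35 libraries (log2 fold change 0.91 ± 0.16, edgeR adjusted p = 0.001). Of the 19 endothelial markers listed, 10 could be tested, 1 rose (Ecscr) and 0 fell, with a median of 0.29. The members held 4 counts of Cdh5, 19 of Pecam1 and 7 of Vwf in all, against 0, 7 and 2 in matched cells, and both sets held 0 counts of Tie1 and Cldn5. Other markers of the list were detected in both sets: Flt1 had 898 counts in members and 721 in matched cells, Eng 508 in members and 542 in matched cells, and Egfl7 212 in members and 163 in matched cells. Emcn had 544 counts in members and 217 in matched cells (1.65 ± 0.40, edgeR adjusted p = 0.0563). Over the libraries the summed level of the list ran between 77.9 and 388 CPM in members and between 48.2 and 369 CPM in matched cells, so the sets overlapped. Without cells of other types Ecscr had 0.66 ± 0.19 (edgeR adjusted p = 0.135), Cd93 1.46 ± 0.47 (0.274 by the same adjustment) and Ednrb 1.30 ± 0.38 (0.158), and none of these 3 passed without the deepest 5% of cells, while Heg1 passed in both settings.

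Of the basement membrane genes, Col4a1, a chain of collagen IV, rose by a small amount in most libraries, with 798 ± 201 CPM in members and 620 ± 143 CPM in matched cells (SD, n = 35; log2 fold change 0.36 ± 0.06, edgeR adjusted p = 0.00149; higher in 31 libraries). Lamc1, the laminin gamma chain, had 0.35 ± 0.08 (edgeR adjusted p = 0.0399). Both were named after their values were seen, and Col4a1 overlaps Col4a2. Neither passed without cells of other types, where Col4a1 had 0.22 ± 0.11 (edgeR adjusted p = 0.769), nor without the deepest 5% of cells, where it had 0.36 ± 0.10 (edgeR adjusted p = 0.115).

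**Figure D4:**
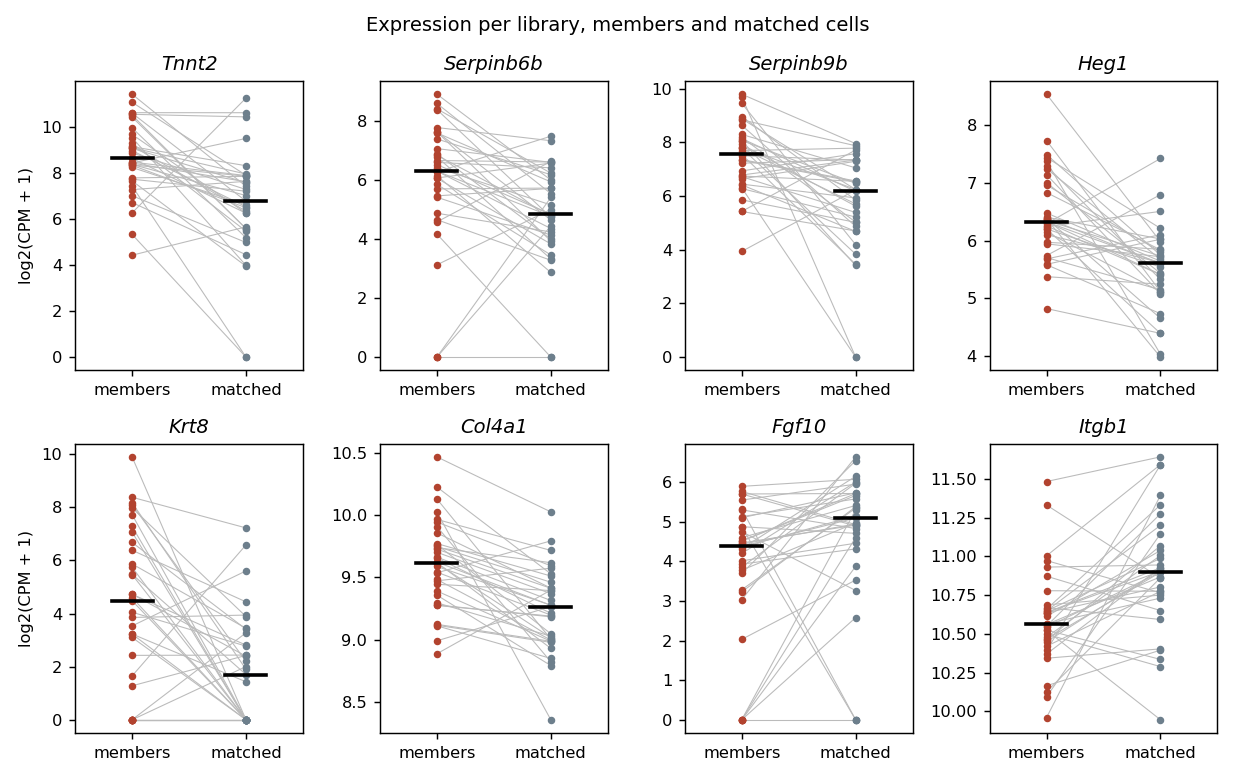
Level in each of 35 libraries as log2(CPM + 1), for members (left) and matched cells (right) of the same library, joined by lines; black bars are medians and each panel has its own axis. Col4a1 was higher in members in 31 libraries and Tnnt2 in 30, while Fgf10 and Itgb1 were lower in members in 27 libraries each.

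Krt8, a keratin of simple epithelia, had a log2 change of 2.42 ± 0.44 (edgeR adjusted p = 0.00207), with levels of 0, 21.4 and 956 CPM in members and 0, 2.26 and 149 CPM in matched cells. It was detected in 17.1% of members and 7.28% of matched cells, and 10 members held 77.7% of its counts. Its partner Krt18 had 1.28 ± 0.32 (edgeR adjusted p = 0.0563), and of the 5 simple epithelial keratins 1 rose and 0 fell. In the cornified epithelium list, to which Sprr2k is related, 0 of 8 tested genes passed; their median was 1.25, Ivl had 121 counts in members and 7 in matched cells, and Cdh1 and Krt6a had 0 counts in both sets. Further genes that rose were Ccl17, a chemokine (1.88 ± 0.42), Cd200, an immunoglobulin-family ligand (1.35 ± 0.26), Apod, a lipocalin (1.33 ± 0.29), and, named after their values were seen, Prelp, a leucine-rich matrix proteoglycan (1.10 ± 0.21), and Chchd10, a mitochondrial protein (0.84 ± 0.16). Ccl17, Cd200 and Apod did not pass without cells of other types or without the deepest 5% of cells, and Prelp did not pass without the deepest cells. Of the counts in members, the 10 highest members held 81.7% for Ccl17 and 66.7% for Apod. Akr1b7, an aldo-keto reductase, had 105 counts in members and 0 in matched cells, which is at least 32.9-fold higher against a limit of 3 counts over the matched cells. However, 98 of the 105 counts lay in 1 cell and the remaining 7 in 6 others.

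Genes that were lower in members included signals and matrix genes of mesenchyme. Fgf10, a growth factor of limb and lung mesenchyme, had a lowest, median and highest level of 0, 19.8 and 58.6 CPM in members, against 0, 33.2 and 98.9 CPM in matched cells (log2 fold change -0.93 ± 0.19, edgeR adjusted p = 0.00884). Mecom, a zinc-finger transcription factor, had -0.90 ± 0.19, and Hmga1, a chromatin protein of growing cells, had -0.89 ± 0.19. Exons of these 3 genes overlap other annotated genes, as do those of Qsox1, Rtn4 and Gm2115, described below. Col2a1, the main collagen of cartilage, had the lowest log2 fold change, -1.45 ± 0.32 (edgeR adjusted p = 0.0219), but it was lower in 19 libraries and higher in 10, and 34.3% of its counts in members lay in 1 library. It was the 1 of 10 tested cartilage genes that passed, and the median of that list was -0.02. Smaller and more even decreases were those of Lrrc32, which holds latent TGF-beta at the surface (-0.59 ± 0.11), Ltbp1, a latent TGF-beta binding protein (-0.56 ± 0.12), Mllt3, a chromatin reader (-0.55 ± 0.14), Qsox1, a sulfhydryl oxidase (-0.32 ± 0.07), Itgb1, the beta-1 integrin (-0.31 ± 0.07), and Rtn4, a reticulon of the endoplasmic reticulum (-0.30 ± 0.07). Itgb1 had 1579 ± 373 CPM in members and 1972 ± 511 CPM in matched cells (SD, n = 35). The long noncoding RNA gene Gm2115 had -0.75 ± 0.15. Each of the 11 genes was lower in the summed counts of all 3 series. Without cells of other types all 11 kept their sign and 0 passed, with edgeR adjusted p between 0.074 and 0.832, and Lrrc32 had -0.29 ± 0.17. Without the deepest 5% of cells 3 passed, Ltbp1, Lrrc32 and Col2a1.

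For most lists no gene passed the test. Of 11 tested tendon genes, where Thbs4 is typical, 0 passed and the median was 0.21. Of 8 tested genes of osteoblasts and hypertrophic cartilage, where Mmp13 is typical, 0 passed and the median was -0.27. Of 20 tested metalloproteases and their inhibitors 0 passed (median 0.17), and likewise 0 of 9 thrombospondins and CCN proteins (median 0.14). The 18 fibroblast genes had a median of 0.16 with 0 calls, and their summed level was 9988 to 21335 CPM in members and 9638 to 17860 CPM in matched cells, so both sets expressed the genes of the labelled cell type. Mesothelial genes had a median of 0.51 with 0 of 13 calls. Macrophage genes had a median of 0.11 with 0 of 8 calls. Genes of S phase (-0.09) and of G2 and M phase (-0.05) had 0 calls among 20 each. Of all tested genes 52.0% had a positive fold change, while all 12 genes of the p53 response had a negative one, with a median of -0.10 and 0 calls. The 7 tested mitochondrial genes also had a negative fold change in each case (median -0.10), and the mitochondrial share of counts was 0.502 ± 0.133% in members and 0.533 ± 0.109% in matched cells (SD, n = 35 libraries). The remaining lists had 0 calls and medians between -0.14 and 0.45.

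The members were also divided by whether they held any of Thbs4, Mmp13 and Cited1, a split chosen after the data had been seen. The 215 paired members with at least 1 of them and the 207 with none were each set against their own matched cells, 30 of which served both. Of the genes tested, 41 passed for members with at least 1 (0.302%) and 34 for members with none (0.254%). The log2 fold change of Tnnt2 was 1.97 ± 0.39 in members with at least 1 and 1.56 ± 0.29 in those with none, and for Serpinb9b 1.48 ± 0.31 in members with at least 1 and 1.40 ± 0.25 in those with none. Both genes passed the threshold in both sets. Krt8 had 3.67 ± 0.49 (edgeR adjusted p = 1.8e-05) in members with at least 1 of the 3 genes and 1.91 ± 0.65 (edgeR adjusted p = 0.441) in those with none. Ecscr had 0.71 ± 0.25 (edgeR adjusted p = 0.292) in members with at least 1 of the 3 genes and 0.82 ± 0.19 (edgeR adjusted p = 0.0394) in those with none. The difference between these 2 sets was not tested. Of the single rule genes, Cited1 went with the highest Tnnt2 level: pooled over cells, Tnnt2 was at 1262 CPM in the 75 members with Cited1 and 408 CPM in the 352 without it. The share of members with a Tnnt2 count differed less, at 84.0% with Cited1 and 68.2% without it. Among the paired members, the 10 highest held 37.9% of the Tnnt2 counts. Krt8 was at 95.5 CPM in the 337 members with Serpinb1a and 18.7 CPM in the 90 without it, and at 152 CPM in the 99 members with Mmp13 and 57.7 CPM in the 328 without it. The share of members with a Krt8 count differed less, at 23.2% with Mmp13 and 15.2% without it. With each other rule gene the pooled Krt8 level was lower than without that gene. The level was 25.9 CPM with Thbs4 and 90.8 CPM without, and 47.0 CPM with Cited1 and 87.3 CPM without. These are descriptions over cells, without a test, and 10 members held most counts of Krt8.

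Mesp1, a pool factor and an early regulator of cardiac mesoderm, was detected in 55 members and in 448 other cells. Its share was 11.7% in members and 9.47% in matched cells as a mean over libraries, a difference of 2.27 ± 2.47 percentage points (SE; adjusted p = 0.757 by a permutation test). Among members with Cited1, 22 of 75 (29.3%) held a Mesp1 count, while with each other rule gene the share was between 10.1 and 14.3%. When the 55 members with Mesp1 were paired with other Mesp1 cells of the same libraries, 7 of 11611 genes were higher (0.0603%) and 0 were lower, and 402 had an unadjusted p under 0.05. DESeq2 called 2 genes higher and 0 lower. Serpinb6b had 697 counts in these members and 73 in their matched cells, and was higher in 20 of 25 libraries (log2 fold change 2.65 ± 0.30, edgeR adjusted p = 3.1e-07). Ly6a, the surface antigen Sca-1, had 340 counts in these members and 32 in matched cells (2.57 ± 0.39, edgeR adjusted p = 0.00047), and its relative Ly6c1 had 113 counts in members and 8 in matched cells. Ifit1, an interferon-induced gene, had 79 counts in members and 6 in matched cells, and Igfbp6, an IGF-binding protein, had 246 counts in members and 51 in matched cells. The other 2 genes, Erv3 and Myl4, were outside the rule for naming. Erv3, an endogenous retroviral gene, had 296 counts in members and 0 in matched cells, from 3 libraries. Without Mesp1 it went the other way, with 31 counts in 9 of 371 paired members and 371 counts in 7 matched cells. Its highest count in any cell was 294, so its value rests on few cells. Depth was poorly matched here: the median total was 42923 counts in members with Mesp1 and 27710 counts in the other Mesp1 cells, and 38.2% of pairs lay within 10%. With the deeper cell of each pair thinned to the total of the other, an alternative added after the data had been seen, 4 of the 7 genes (Serpinb6b, Ly6a, Erv3 and Myl4) remained past the threshold, while Ly6c1, Ifit1 and Igfbp6 did not. In the 371 paired members without Mesp1, 55 of 14255 genes were higher (0.386%) and 18 lower (0.126%), with Krt8 at 2.89 ± 0.43, Krt18 at 1.70 ± 0.29 and Emcn, an endothelial sialomucin, at 1.88 ± 0.44 among the higher genes, and Col2a1 at -1.89 ± 0.38 and Cd80, a T-cell co-stimulator, at -1.13 ± 0.28 among the lower ones. These cells are also part of the comparison of all members.

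Of the 43 pool factors with a row in the tables, 1 differed in the share of cells with a count (2.33%). Shox2, a homeobox factor of limb and sinus node development, was detected in 34.9% of members and 21.7% of matched cells as means over 35 libraries, a difference of 13.3 ± 3.36 percentage points (SE; p = 0.00034 and adjusted p = 0.0146 by a two-sided permutation test that flips signs by library). It was higher in 23 libraries, and the libraries of both sets overlapped. Within series the difference was 13.3 ± 5.20 points in JD (permutation adjusted p = 0.339), 10.3 ± 4.79 in PZ47-PZ48 (permutation adjusted p = 0.434) and 20.7 ± 10.4 in PZ58. With the 6 libraries of PZ58 the exact permutation test could not bring a single factor past the adjusted threshold, whatever its difference. Shox2 did not pass when only pairs with totals within 10% were kept (9.68 ± 3.46 points, permutation adjusted p = 0.181). Hand2 was next, with 22.6% in members and 13.7% in matched cells (adjusted p = 0.138). Counts of a factor can come from the vector or from the cell's own gene, and these cannot be told apart.

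Members had more members among their nearest neighbours than matched cells had, although most neighbours of a member were not members. For each cell the 15 nearest cells of other libraries were found in 30 principal components of 2000 variable genes without the rule genes. Ctla2b, Serpinb1b and Serpinb1c, whose counts reads of rule genes can reach, were not taken out. Whether they were among the 2000 genes is not given here. Of the neighbours, 16.0 ± 8.02% were members around members and 8.21 ± 3.99% around matched cells (SD, n = 35 libraries), against 4.99% of all cells. The difference was 7.82 ± 1.15 percentage points (SE), higher around members in 33 of 35 libraries, lower in 1 and equal in 1 (p = 1e-05 by a permutation test, the smallest that 100000 resamples can give). Within series it was 7.98 ± 2.5 points for JD, 8.22 ± 1.29 for PZ47-PZ48 and 6.44 ± 1.69 for PZ58, where 5 of 6 libraries were higher and 1 was equal (exact permutation p = 0.0625). With 1 library equal, that is the smallest exact p that 6 libraries can give. In a setting added after the data had been seen, cells with 4 or more markers of another type were left out of the pairs and of the neighbours. The share was then 9.77% around members and 4.82% around matched cells, a difference of 4.95 ± 0.938 points, higher in 28 of 35 libraries (p = 1e-05 by the same permutation test). Genes detected per cell were 6057 ± 1062 in members and 5947 ± 1002 in matched cells (SD, n = 35 libraries), a difference of 109.5 ± 35.8 (SE, p = 0.00435 by the same test). With the deeper cell of each pair thinned it was 52.8 (permutation p = 0.0973) and no longer passed the threshold of 0.05. Mean totals before thinning were 35546 counts in members and 33370 counts in matched cells.

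**Figure D5:**
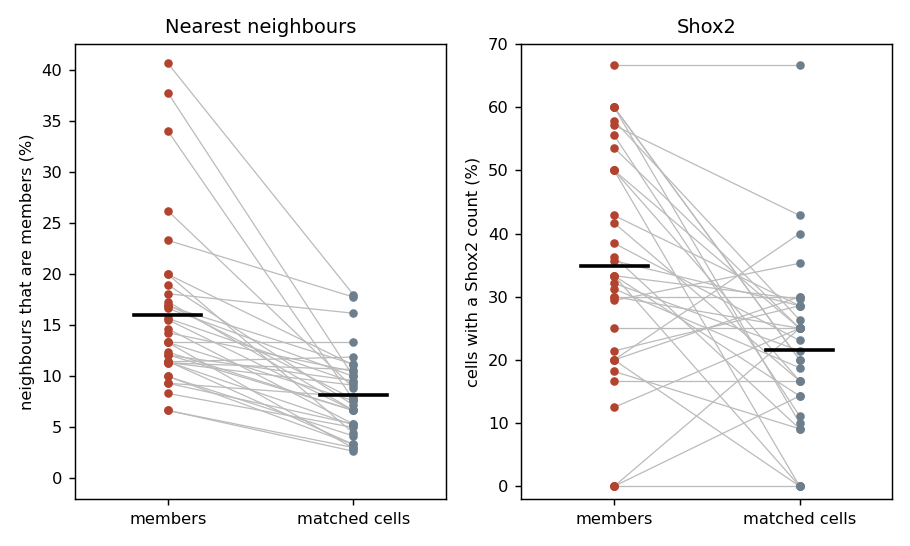
Percentage of the 15 nearest neighbours that were members (left panel) and percentage of cells with a Shox2 count (right panel), for members (left) and matched cells (right) in 35 libraries; lines join a library and black bars are means. The mean share of neighbours was 16.0% for members and 8.21% for matched cells, and that of cells with Shox2 was 34.9% in members and 21.7% in matched cells.

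The genes whose detection was most like the rule, by the difference in the share of cells with a count over 426 pairs, included Lum, Serpinb6b, Serpinb9b, Gsta4, Fam129a, Chchd10 and Gas7. Lum, the matrix proteoglycan lumican, was detected in 49.5% of members and 30.5% of matched cells, a difference of 19.0 percentage points. Gsta4, a glutathione transferase, was detected in 62.2% of members and 44.4% of matched cells. For these 7 genes the difference lay between 16.4 and 19.0 points, and 3 of them, Serpinb6b, Serpinb9b and Chchd10, also passed the test of their level.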

How the data were processed

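The deposited files hold raw counts per gene and cell barcode, which the authors did not normalize; whether they are counts of reads or of unique molecules is not given in the sources used here. Per the submitters' processing notes, bcl2fastq 2.17.1.14, STAR 2.5.3a, UMI-tools (no version given) and featureCounts 1.5.3 were used with build mm10; how strands, multi-mapped reads and low-count barcodes were treated, and which annotation was used, is not given in the sources used here. Of 27998 Ensembl rows 27645 matched a symbol and 353 did not; the further row for EGFP held 0 counts. Where libraries shared a barcode, or 2 barcodes of a library differed at 1 base, only the deeper one stayed, which removed 167 of 8730 and left 8563 cells with 1610 or more counts. No doublet caller was run; a setting without the deepest 5% of cells of each library was used in its place, and it need not remove doublets of ordinary depth.

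Each member was paired with the cell of its library nearest in total counts that did not meet the rule, without replacement, in libraries with at least 2 members, so pairing is by library through the construction of the sets. Counts were summed per library and set, and genes with at least 20 counts were tested with edgeR 4.0.16 (quasi-likelihood test, TMM scaling, library as a block, Benjamini-Hochberg adjustment over all genes tested, threshold 0.05); DESeq2 1.42.0 was an alternative. Other measures were tested by flipping signs by library with 100000 resamples, or exactly with fewer than 10 libraries. The tests were checked on simulated counts. For edgeR these had a common dispersion and no outlier cells, so the check does not cover genes whose counts lay in few cells. CPM are counts of a gene scaled to a sum of 1e6 counts over the summed cells. Exact binomial intervals are at 95% and cover counting error only. The rule named the 12 highest and 12 lowest genes past the threshold with at least 50 counts, 4 or more in each set and 1 sign in all 3 series, up to 3 per list, and up to 6 with 3 or fewer counts in matched cells; for the sets split by Mesp1, 5 highest and 5 lowest. The members and the 31 lists were chosen with earlier results of these data known. Positions are from an annotation of GRCm38, and 20 of the 44 called genes overlap an exon of another gene, so that their counts are uncertain. Among these 20 are Krt8, Heg1, Chchd10, Prelp and Akr1b7, whose overlap is not stated where they are described. Of the 48 factors, 43 were measured; the microRNAs are not analysed here. Of the genes past the threshold, 1 is counted but not reported here.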

Additional observations from a re-analysis of the deposited data

How the results depend on the processing

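In the comparison of members with matched cells, no named gene reversed under any alternative run. Over genes and settings, 334 values stayed on the same side of the threshold and 235 with the same sign lost it. The highest and lowest named genes had been chosen for the same sign in each series. Their lack of reversal in runs on a series alone therefore largely follows from that choice. All alternatives reuse members of the main comparison, so they are not independent of it. Krt8 and Serpinb9b kept their call in 19 of 23 alternatives and Serpinb6b in 18, while Mllt3 kept it in 8 and Tnni1 in 9. All called genes that could be tested kept their sign in each alternative.

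Counts are given here in all and as those higher in members; the rest were lower. Against 44 genes in all, 33 of them higher, DESeq2 called 68 (51 higher), no filter on low counts gave 307 (237 higher), and members with at least 4 rule genes gave 13 (12 higher). Matched cells with none of the rule genes gave 555, 390 of them higher. With 3 matched cells per member there were 118, of which 79 were lower. Without Mesp1 cells there were 73 (55 higher), and without cells of other types 32, of which 6 were lower; 13 of the 43 main calls tested there were among the 32. Without the deepest 5% of cells 33 were called, 19 of the 44 among them. Single series gave 3 in JD, all higher, 21 in PZ47-PZ48 (18 higher) and 5 in PZ58 (4 higher). The libraries with Rps27a above 100 CPM gave 8, all higher, and the others 20 (19 higher). Both splits by Thbs4, Mmp13 and Cited1, added after the data had been seen, gave 41 and 34 in all, with 5 lower in each. With no replicate block for the library there were 125, 101 of them higher; among Mesp1 cells 40 (29 higher), against 7 with the block, all higher; without Mesp1 151 (118 higher), against 73. Among Mesp1 cells, DESeq2 called 2, no filter 43 and the thinned pairs, also added later, 4. Without Mesp1, no filter gave 306 (234 higher). The cause of these differences was not tested; smaller sets hold fewer cells by construction.

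The number of pool factors past the threshold, 1 in the main setting, was 8 against cells with none of the rule genes and 0 with at least 4 rule genes, totals within 10%, the top 5% of cells left out, each series, each Rps27a class and members with at least 1 of Thbs4, Mmp13 and Cited1. In PZ58 and in the high Rps27a class too few libraries were left for a single factor to pass after adjustment, whatever its difference. The excess of members among neighbours kept its call except in PZ58 alone (6.44 points, exact permutation p = 0.0625). There 5 of 6 libraries were higher and 1 was equal, so the exact test could give no smaller p. Without cells of other types the excess was 4.95 points. The difference in genes detected, 109.5, was past the threshold no more with totals within 10% (51.8), without the top 5% (67.6), in PZ47-PZ48 (53.7), in PZ58 (64.9), in libraries with high Rps27a (75.4), in members with at least 1 (69.5) or none (74.4) of Thbs4, Mmp13 and Cited1, and in thinned pairs (52.8). The share of members, 4.99%, was 1.01% after thinning, 19.5% for at least 2 and 0.782% for at least 4 rule genes. Depth limits all detection shares: a gene with no count in a cell may still be expressed there.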

Other observations

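Some genes rested on a single member; they were named after their values were seen. Star, which brings cholesterol into mitochondria, Cyp11a1, the enzyme that starts steroid synthesis, and the aldo-keto reductase Akr1b7 were among the genes with few cells in the comparison of the 371 paired members without Mesp1. Star had 232 counts in these members and 9 in matched cells, Cyp11a1 had 446 in members and 3 in matched cells, and Akr1b7 had 104 in members and 0 in matched cells. A single member of technical replicate 34, with a total of 31106 counts and Ctla2a, Ptprb and Serpinb1a as its rule genes, held 159 of the Star counts, 376 of the Cyp11a1 counts and 98 of the Akr1b7 counts. It also held 20 counts of Cyp11b1 and 4 of Nr5a1, and 0 of Hsd3b1. Of the counts of Myh6, a cardiac myosin heavy chain, 117 lay in these members and 1 in matched cells, and 104 of the 117 lay in 1 member of technical replicate 19 with a total of 17444 counts and Thbs4, Cited1 and Serpinb1a as its rule genes.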
